A study of Mus musculus with 18 samples.

Results

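The genes described here encode collagens, laminins and matrix proteoglycans, together with fibronectin, the matricellular CCN proteins and the insulin-like growth factor genes Igf2 and Igfbp2. They were found by gene symbol in the platform annotation, as every collagen chain (Col, a number, a and a number), every laminin chain (Lama, Lamb or Lamc and a number), every Ccn gene with a single digit, and Lum, Ogn, Dcn, Bgn, Fmod, Fn1, Sparc, Hspg2, Vcan, Bcan, Ncan, Acan, Igfbp2 and Igf2. This gave 65 of the 12393 genes on the array, each read from whichever of its probe sets had the highest mean over the arrays. From general knowledge of adult brain, 23 were placed in a meningeal class, 17 in a vascular class, 8 in a neural class and 17 in a class of other genes.

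Expression was measured in the cerebellum of male mice aged 80 days (± 5) on 18 Affymetrix arrays in 6 groups. The mice were wild-type, ApoD knock-out or Human-ApoD transgenic, the last a gain-of-function line that the study describes as over-expressing apolipoprotein D (ApoD), a lipid-binding lipocalin, in neurons; the promoter is not named in the sources used here. The treated mice of each genotype were injected once in the peritoneum with paraquat, a redox-cycling herbicide, at 30 mg/kg in 200 µl of saline, and the controls with a similar volume of saline, and the tissue was taken after 6 h. RNA of 3 mice was pooled for each array, so that each group has 3 arrays from 9 mice, and the error and p-values below measure the spread between pools.

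The matrix of the brain is laid down by different cells in different places. Fibroblasts of the meninges, and those that follow the larger vessels, make fibrillar collagens and small leucine-rich proteoglycans such as lumican and decorin, and the meninges and choroid plexus are known sources of IGF2 and of its binding protein IGFBP2. The vascular basement membrane is a sheet of type IV collagen, laminin, perlecan and nidogen made by endothelial cells, pericytes and astrocytes, while neurons and glia fill the spaces around synapses with hyaluronan and the lecticans brevican, neurocan, versican and aggrecan.

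Values are log2 signals from the robust multi-array average (RMA), so that a difference of 1 is a doubling; the levels of different probe sets cannot be set against each other. A gene was tested when it was at or above the 40th percentile of probe set values on 3 or more arrays, and it was called when limma's Benjamini-Hochberg adjusted p over the 8320 genes tested was under 0.05. By this rule 35 of the 65 genes were tested: 16 meningeal, 11 vascular, 6 neural and 2 other. Of these, 28 were above the threshold on all arrays and 7 on some of them (Ccn3, Col3a1, Col5a3, Col7a1, Lamb2, Lum and Vcan). Lum was above it on 0 of the 6 transgenic arrays and Ccn3 on 1, so that both were tested only because of their level in the other genotypes. Another 6 genes reached the threshold on 1 or 2 arrays and 24 on none, among them Col1a1, the other main chain of type I collagen, Acan, the aggrecan gene, and Lama4, a laminin chain of vessels.

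As facts of the whole series, Apod itself was between 12.13 and 12.76 on the wild-type and transgenic arrays and between 8.22 and 9.83 on the knock-out arrays; a mouse probe set need not read a human transgene, and whether it lies in the deleted part is not known from the labels. The second knock-out paraquat array stood apart, with a mean correlation with the other arrays of 0.972 against 0.986 to 0.993, and 9 of the 35 tested matrix genes lay more than 0.5 from the other arrays of its group. On the third transgenic array of each treatment the 3′ probe set of pyruvate carboxylase, a labelling control, exceeded the 5′ probe set by 1.82 and 1.95, and on the second knock-out paraquat array by 2.25, against 2.63 to 3.16 elsewhere. The control probe set in the middle of 18S ribosomal RNA was lower in the transgenic as a group: it read 7.52, 6.94 and 6.15 under saline and 7.30, 6.33 and 6.20 under paraquat, and 5 of these 6 arrays lay below all 12 arrays of the other genotypes, which ranged from 7.35 to 8.42. The part of these array differences in the results was not tested, beyond leaving out each array in turn.

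In the transgenic cerebellum, 4 genes of small leucine-rich proteoglycans of the meningeal class and both IGF genes were called lower than in wild-type under at least 1 treatment. Osteoglycin (Ogn), lumican (Lum) and decorin (Dcn) fell below wild-type under saline and under paraquat, by 0.56 to 0.92 on the log2 scale, as did Igf2. Fibromodulin (Fmod) was called lower under paraquat only and Igfbp2 under saline only. Biglycan, of the same proteoglycan family, and the tested fibrillar collagens of the meningeal class did not pass the test under either treatment.

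Osteoglycin and fibromodulin are both secreted small leucine-rich proteoglycans that bind collagen fibrils, and their promoter windows are shown so that the letters at their start sites can be compared. Each window runs from 250 bases before to 50 bases after the RefSeq start site (GRCm38.p6), at chr13:49607765-49608064 on the plus strand for Ogn and chr1:134037004-134037303 on the plus strand for Fmod. Capitals mark matches on either strand to TATAAA or CCAAT, and GGGCGG was also searched and has no match in these windows.
Ogn: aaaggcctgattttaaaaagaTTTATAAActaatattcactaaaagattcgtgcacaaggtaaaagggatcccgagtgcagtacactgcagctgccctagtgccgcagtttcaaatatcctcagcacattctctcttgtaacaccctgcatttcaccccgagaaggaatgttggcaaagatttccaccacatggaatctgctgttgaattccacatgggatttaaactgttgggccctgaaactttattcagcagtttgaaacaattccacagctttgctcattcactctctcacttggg
Fmod: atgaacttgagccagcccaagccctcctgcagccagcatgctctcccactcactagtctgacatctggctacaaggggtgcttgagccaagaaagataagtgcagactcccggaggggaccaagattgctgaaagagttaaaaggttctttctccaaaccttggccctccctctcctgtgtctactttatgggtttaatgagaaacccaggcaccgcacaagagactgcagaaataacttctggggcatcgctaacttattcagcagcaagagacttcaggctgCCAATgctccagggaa
The Ogn window holds TATAAA on each strand, as overlapping matches within a run of 8 capitals, and has a GC content of 42.3%. The Fmod window holds CCAAT once and has a GC content of 51.0%. Of 32851 mouse windows of the same length, 13.6% hold TATAAA, 37.4% hold CCAAT and 35.7% hold GGGCGG. Of the 52 windows of 44 of the matrix genes, 15.4%, 34.6% and 57.7% hold them. In the RefSeq gene order Ogn lies next to Omd, Fmod next to Prelp and Lum next to Dcn, so that several genes of this proteoglycan family are neighbours.

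Osteoglycin read 7.55, 7.53 and 7.71 in wild-type mice given saline and 7.78, 7.47 and 7.51 in those given paraquat. In the transgenic it read 6.64, 6.75 and 6.64 under saline and 7.13, 6.61 and 6.75 under paraquat. The knock-out arrays read 7.44, 7.38 and 7.60 under saline and 7.58, 7.27 and 7.11 under paraquat. All transgenic arrays were below all wild-type arrays, and the highest transgenic array lay just above the lowest knock-out array. The transgenic mean was lower by 0.92 under saline (SE 0.14, limma adjusted p = 0.001) and by 0.76 under paraquat (SE 0.14, limma adjusted p = 0.0012), which is 52.8% and 59.2% of the wild-type level. A second probe set of Ogn differed in the same direction, by -1.17 and -1.42.

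Lumican, which spaces collagen fibrils, read 6.75, 6.69 and 6.61 in wild-type under saline and 6.79, 6.94 and 6.36 under paraquat. In the transgenic it read 6.06, 5.89 and 6.0 under saline and 5.72, 5.72 and 6.12 under paraquat. The knock-out arrays ranged from 6.41 to 6.90. No transgenic array reached the lowest array of the other genotypes. The differences from wild-type were -0.70 (SE 0.14, limma adjusted p = 0.0071) and -0.84 (SE 0.14, limma adjusted p = 0.00053).

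Decorin, a fibril-binding proteoglycan that also binds TGF-beta, read 8.69, 8.54 and 8.89 in wild-type under saline and 9.01, 8.72 and 8.65 under paraquat. Its transgenic values were 8.19, 8.25 and 8.01 under saline and 8.18, 8.15 and 8.31 under paraquat. All 6 transgenic values were below all wild-type values, but knock-out paraquat replicates 2 and 3, at 8.27 and 8.23, lay among them. Dcn fell below wild-type by 0.56 under saline (SE 0.13, limma adjusted p = 0.017) and by 0.58 under paraquat (SE 0.13, limma adjusted p = 0.0051). The saline call ended without the first or the third wild-type saline array or the third transgenic saline array, with an adjusted p of up to 0.077.

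Igf2, a growth factor that signals through the IGF1 and insulin receptors, read 10.12, 9.94 and 10.29 in wild-type under saline and 9.96, 9.87 and 10.28 under paraquat. It read 9.40, 9.74 and 9.46 in the transgenic under saline and 9.38, 9.52 and 9.55 under paraquat. The knock-out ranged from 9.71 to 10.06. The transgenic and wild-type arrays did not overlap, and the second transgenic saline array lay within the lower end of the knock-out. The difference was -0.58 under saline (SE 0.12, limma adjusted p = 0.0098) and -0.55 under paraquat (SE 0.12, limma adjusted p = 0.0048). A second, dim probe set of Igf2 differed by -0.16 and 0.15, and with the mean of both probe sets neither difference was called, at -0.37 under saline (limma adjusted p = 0.053) and -0.20 under paraquat (limma adjusted p = 0.22). The saline call also ended without the first or the third wild-type saline array, with an adjusted p of up to 0.053.

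Igfbp2 encodes a binding protein that carries IGFs in cerebrospinal fluid. Under saline it read 9.60, 9.44 and 9.66 in wild-type and 8.74, 9.09 and 8.52 in the transgenic, with no overlap. Under paraquat it read 9.62, 9.30 and 9.62 in wild-type and 9.43, 9.09 and 8.79 in the transgenic, where the first transgenic array lay above the second wild-type array. The knock-out read 9.29, 9.37 and 9.33 under saline, below all wild-type and above all transgenic saline arrays. Its paraquat arrays read 9.34, 8.94 and 9.27 and overlapped with both other genotypes. The transgenic differed from wild-type by -0.79 under saline (SE 0.16, limma adjusted p = 0.0081) and by -0.41 under paraquat (SE 0.16, limma adjusted p = 0.077). Whether these differences themselves differ was tested as an interaction, which gave 0.38 (SE 0.22, limma adjusted p = 1).

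Fibromodulin was represented by the probe set with the highest mean of 6. Under saline it read 8.28, 8.29 and 8.19 in wild-type and 7.55, 7.54 and 7.77 in the transgenic, and under paraquat 8.56, 8.42 and 8.57 in wild-type and 8.31, 7.68 and 7.04 in the transgenic. Transgenic and wild-type did not overlap under either treatment, although the transgenic paraquat arrays spread over more than 1 log2 unit. The knock-out read 8.02, 8.19 and 8.24 under saline and overlapped with wild-type. Its paraquat arrays read 8.21, 7.715 and 8.10, below all wild-type paraquat arrays and within the transgenic range. The transgenic differed from wild-type by -0.63 under saline (SE 0.20, limma adjusted p = 0.065) and by -0.84 under paraquat (SE 0.20, limma adjusted p = 0.0074). The probe sets disagreed: the next brightest differed by -0.02 and -0.03, and the other 4 by -0.20 to -0.32.

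**Figure D1:**
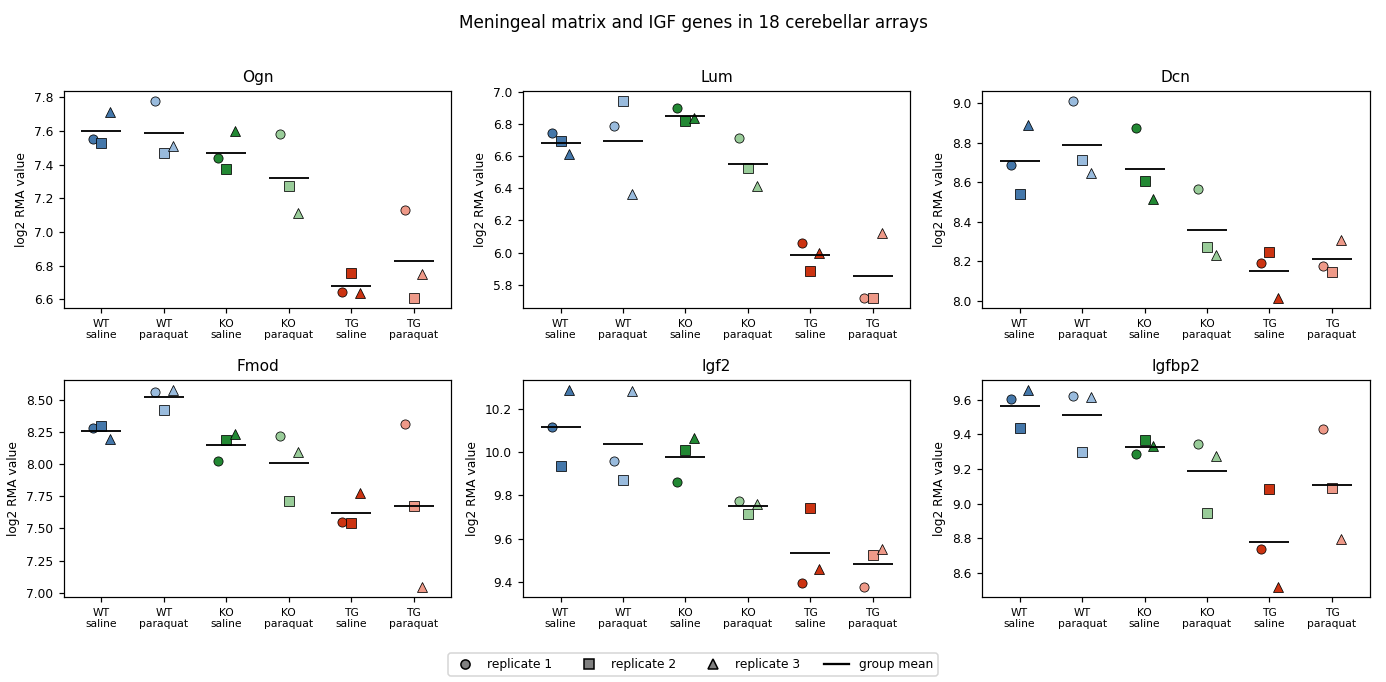
Log2 RMA values (vertical axis) of 6 meningeal matrix and IGF genes in the 6 groups (horizontal axis); each symbol is an array of 3 pooled mice, its shape the replicate number, and the bar is the group mean. Every transgenic array (red) of Ogn, Lum, Dcn and Igf2 lies below every wild-type array (blue), for example at 5.72 to 6.12 against 6.36 to 6.94 for Lum.

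Among the other meningeal genes, the collagens showed no call. Col1a2, a chain of type I collagen, read 8.86, 8.83 and 9.58 in wild-type saline and 8.95, 9.20 and 8.36 in transgenic saline, which overlapped, and its differences from wild-type were -0.25 and -0.25 (SE 0.20 each, limma adjusted p = 0.49 and 0.41). Col3a1, the type III chain, spread from 6.32 to 7.56 within the transgenic saline group alone and differed from wild-type by -0.08 and -0.05 (SE 0.24 each). Col6a1, a chain of beaded-filament collagen, differed by -0.33 under both treatments (SE 0.13 each, limma adjusted p = 0.12 and 0.072). Biglycan (Bgn), a relative of decorin, differed by -0.19 and -0.13 (SE 0.15 each). Its other probe sets differed by -0.35 and -0.29 under saline and by -0.37 and -0.11 under paraquat, and were not tested singly. Of the 16 meningeal genes tested, 5 were called lower (31.2%) and 0 higher under each treatment. Of all genes, 4.38% were called lower under saline and 14.3% under paraquat. Of the 16 differences, 14 were below 0 under each treatment. The median difference was -0.29 under saline and -0.21 under paraquat, against -0.01 and -0.06 over all genes tested. Lum is among the 5 called lower and had to be lower in the transgenic, since its transgenic values were under the threshold.

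Over all classes, 7 of the 35 tested genes were called in transgenic against wild-type under saline, 6 lower and 1 higher, which is 20% beside 6.36% of all genes (lower, 17.1% beside 4.38%; higher, 1.98% of all genes). Under paraquat 8 were called, all lower, which is 22.9% beside 19.0% of all genes (lower, 22.9% beside 14.3%; higher, 4.64% of all genes). The share of all genes called under paraquat is therefore close to that of the matrix genes. The 2 comparisons share no arrays, but they share the estimate of each gene's spread, which was taken over all groups. Ccn3, Ogn, Lum, Igf2 and Dcn, 5 genes, were called in both, which is 71.4% of the saline calls and 62.5% of the paraquat calls. The share of all genes called in both is not given here. The overlap therefore does not show whether matrix genes repeated more often than other genes. Without Ccn3 and Lum, which were tested only through the other genotypes, 5 of 33 were called under saline, 15.2% beside 6.36% of all genes. The lower calls among them were 12.1% beside 4.38%. Under paraquat 6 of 33 were called, all lower. That is 18.2%, beside 19.0% of all genes in either direction and 14.3% lower. In both comparisons 3 were called. Without the second knock-out paraquat array, which enters only the estimate of the spread, 10 genes were called under saline and 14 under paraquat, and without the first wild-type saline array 4 were called under saline. The shares of all genes called in these fits are not given here.

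**Figure D2:**
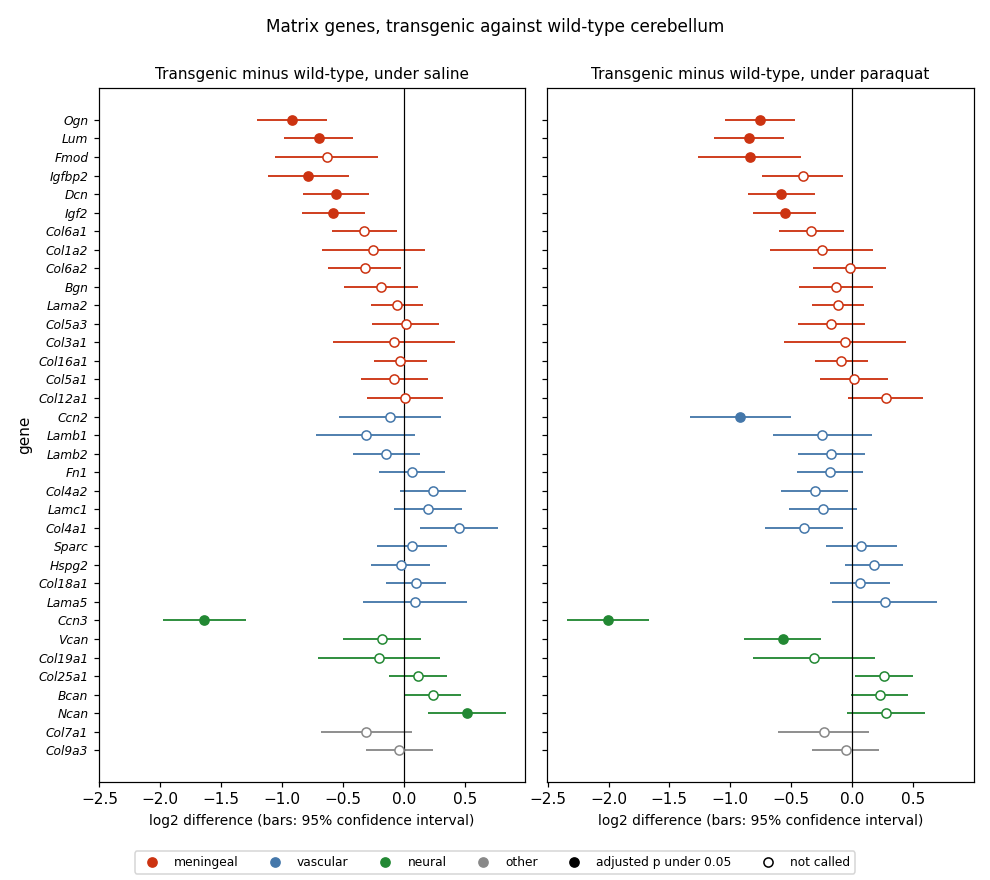
Log2 difference of transgenic minus wild-type (horizontal axis) for the 35 tested matrix genes (vertical axis, coloured by class), under saline on the left and paraquat on the right; bars are 95% confidence intervals and filled points passed limma's adjusted p of 0.05. The meningeal proteoglycans and IGF genes lie to the left of 0 in both panels, and Ccn3 lies farthest, at -1.64 and -2.0.

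Markers of other cell types moved with the transgenic. In bulk tissue, fewer cells of a type and less RNA per cell cannot be told apart. Of all genes, 4.38% were called lower and 1.98% higher under saline, and 14.3% and 4.64% under paraquat. The mean of 8 tested choroid plexus markers ranged from 6.07 to 7.66 on the transgenic arrays and from 7.43 to 8.22 on all other arrays; 8 of 8 were called lower under saline (median -1.52) and 5 of 8 under paraquat (median -0.82). Transthyretin (Ttr), the leading secreted protein of that epithelium, ranged from 11.98 to 14.18 in the transgenic and from 14.29 to 14.49 elsewhere. The mean of 16 tested meningeal and fibroblast markers that are not among the matrix genes ranged from 7.31 to 7.64 in the transgenic and from 7.67 to 7.95 elsewhere; 6 of 16 were called lower under saline and 7 under paraquat, and 0 higher. Igf2 and Igfbp2 are also made by choroid plexus, and 1 of these markers, Pcolce, is itself a collagen-processing protein. Several markers were dim in the transgenic under saline, where Slc4a5, Kl, Calml4, Sostdc1 and F5 had means of 5.20, 5.51, 5.54, 5.61 and 5.72. In the meningeal list Crabp2 had 5.99 there, and Lum, under the threshold on every transgenic array, had 5.98. Markers tested only through the other genotypes could hardly be called other than lower, and their number is not given here. Ttr, at 11.98 or more, was not among them. The endothelial list (8.32 to 8.61 in the transgenic, 8.15 to 8.64 elsewhere) and the list of pericytes and smooth muscle (7.95 to 8.26 and 8.03 to 8.32) overlapped. Of 11 endothelial markers 2 were called lower under saline, and 3 lower and 3 higher under paraquat; of 8 pericyte and smooth muscle markers 0 and 3 were called lower. The part of these cell types in the lower proteoglycan signal was not tested.

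**Figure D3:**
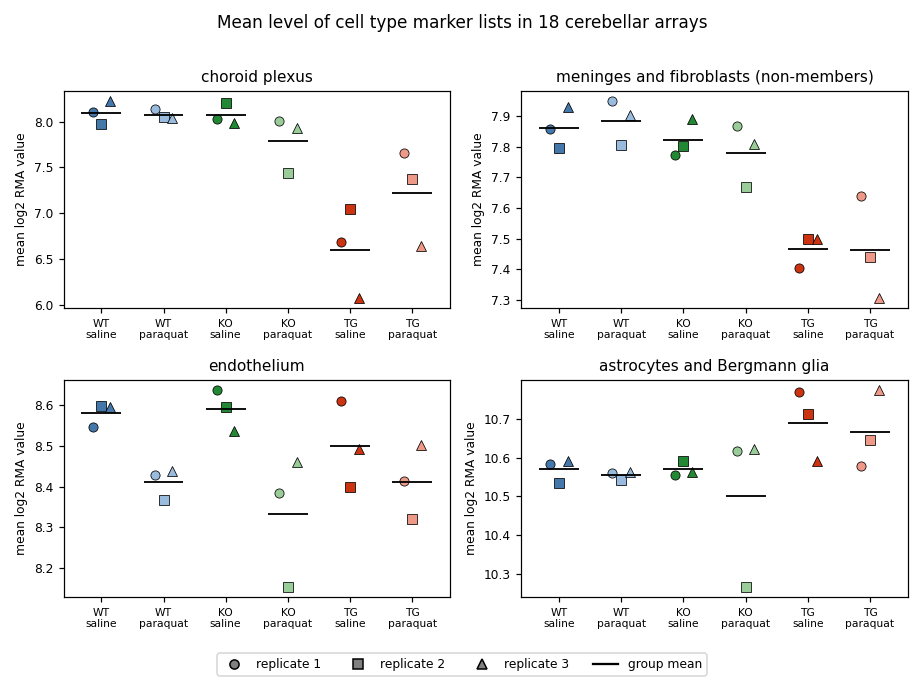
Mean log2 RMA value (vertical axis) of 4 lists of cell type markers on each array in the 6 groups (horizontal axis); symbols are arrays and bars are group means. Choroid plexus and non-member meningeal markers are lower on the transgenic arrays, while the endothelial list overlaps across genotypes. That list is lower under paraquat in wild-type, at 8.37 to 8.44 against 8.55 to 8.60, and in the knock-out, at 8.15 to 8.46 against 8.54 to 8.64.

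In the neural class, Ccn3 showed the largest difference of all 35 tested genes in both transgenic comparisons. CCN3 is a secreted matricellular protein that binds integrins and is made by several neuron types. Ccn3 read 7.69, 7.73 and 7.68 in wild-type under saline and 8.33, 7.93 and 7.99 under paraquat. In the transgenic it read 5.96, 5.82 and 6.39 under saline and 6.23, 6.09 and 5.92 under paraquat. The knock-out arrays ranged from 7.48 to 8.13, so that all transgenic arrays were more than 1 log2 unit below all others. The difference was -1.64 under saline (SE 0.16, limma adjusted p = 2.9e-05) and -2.0 under paraquat (SE 0.16, limma adjusted p = 6.1e-07). Only 1 of the 6 transgenic values reached the threshold for testing, so that, like Lum, the gene was tested only through the genotypes where it is higher, and no share of the wild-type level is given for so dim a signal. A second probe set differed by -1.57 and -1.86, and the call was kept in all 25 alternatives of each comparison.

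Of the 3 lecticans tested, 1 was called higher under saline and 1 lower under paraquat. Neurocan (Ncan), a chondroitin sulfate proteoglycan of the perisynaptic matrix, read 6.87, 6.94 and 7.24 in wild-type and 7.79, 7.69 and 7.12 in the transgenic under saline, which overlapped. It was called higher by 0.52 under saline (SE 0.15, limma adjusted p = 0.049), but the call was lost in 15 of 23 alternatives, among them most that leave out a single array, and under paraquat the difference was 0.28 (SE 0.15, limma adjusted p = 0.2). Its second probe set differed by 0.06 under saline. Brevican (Bcan), made by astrocytes and oligodendrocyte precursors, read 9.58, 9.51 and 9.60 in wild-type saline and 9.70, 9.91 and 9.79 in transgenic saline, without overlap, with differences of 0.24 and 0.23 that were not called (SE 0.11 each, limma adjusted p = 0.21 and 0.17). Versican (Vcan) read 6.73, 7.03 and 6.87 in wild-type and 6.26, 6.55 and 6.11 in the transgenic under paraquat, without overlap, and was called lower by 0.57 (SE 0.15, limma adjusted p = 0.014). The other probe sets of Vcan went against this, at 0.09 and 0.13, and the call ended without the second wild-type or the third transgenic paraquat array (adjusted p up to 0.074). Acan, between 5.65 and 6.09 on all arrays, was not tested. Some markers of glia also differed between transgenic and wild-type. The mean of 6 tested markers of oligodendrocyte precursors was 8.91 to 9.07 in the transgenic and 8.71 to 8.81 in wild-type under saline, and 8.74 to 9.04 and 8.63 to 8.74 under paraquat; 0 of 6 were called under saline (median 0.25), and 2 higher and 1 lower under paraquat (median 0.17). Of 12 markers of astrocytes and Bergmann glia, 2 were called higher under saline and 3 under paraquat, and 0 lower. Gfap (0.67 and 0.62) and Slc1a2 (0.48 and 0.39) were among the higher ones, but the list's medians were only 0.05 and 0.07. The list's mean was 10.58 to 10.77 in the transgenic and 10.53 to 10.59 in wild-type, which overlapped. Of 9 oligodendrocyte markers 0 were called under either treatment. Of 7 microglial markers 0 were called under saline and 2 were lower under paraquat. The part of these cells in the lectican values was not tested.

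**Figure D4:**
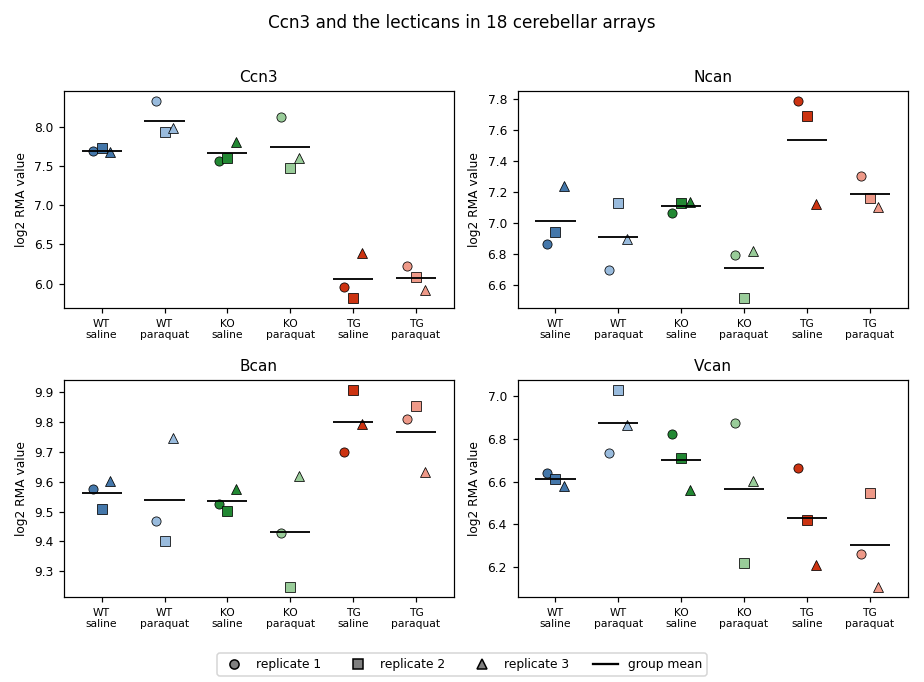
Log2 RMA values (vertical axis) of Ccn3 and 3 lecticans in the 6 groups (horizontal axis); symbols are arrays, shaped by replicate number, and bars are group means. The transgenic arrays of Ccn3 lie at 5.82 to 6.39 and those of the other genotypes at 7.48 to 8.33, whereas the lecticans differ by less than 1 between group means.

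In wild-type mice, paraquat was followed by higher signal of a pair of vascular matrix genes. Col4a1, a chain of the network collagen of basement membranes, and Ccn2, a matricellular protein also known as connective tissue growth factor, were called higher after 6 h, by 1.66-fold and 1.87-fold. These were the only calls among the 35 tested genes (5.71%, beside 2.0% of all genes, of which 1.53% were higher and 0.469% lower), and both were in the vascular class of 11. No meningeal or neural gene was called in that comparison, where the meningeal, vascular and neural medians were -0.06, 0.07 and 0.06 and that of all genes 0.02.

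Col4a1 and Col4a2 encode the chains that assemble as the common type IV collagen heterotrimer, and their windows are shown because they overlap. The windows lie at chr8:11312777-11313076 on the minus strand for Col4a1 and chr8:11312555-11312854 on the plus strand for Col4a2 (RefSeq, GRCm38.p6), on opposite strands with start sites 21 bases apart, so placed that each gene is transcribed across the start site of the other. Capitals mark GGGCGG and CCAAT, and their reverse complements where the match is on the other strand.
Col4a1: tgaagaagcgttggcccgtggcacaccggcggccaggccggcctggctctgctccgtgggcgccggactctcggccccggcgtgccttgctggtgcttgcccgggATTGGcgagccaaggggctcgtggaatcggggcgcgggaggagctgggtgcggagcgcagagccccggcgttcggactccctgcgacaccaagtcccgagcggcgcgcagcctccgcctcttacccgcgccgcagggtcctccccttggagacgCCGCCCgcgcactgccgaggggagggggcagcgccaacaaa
Col4a2: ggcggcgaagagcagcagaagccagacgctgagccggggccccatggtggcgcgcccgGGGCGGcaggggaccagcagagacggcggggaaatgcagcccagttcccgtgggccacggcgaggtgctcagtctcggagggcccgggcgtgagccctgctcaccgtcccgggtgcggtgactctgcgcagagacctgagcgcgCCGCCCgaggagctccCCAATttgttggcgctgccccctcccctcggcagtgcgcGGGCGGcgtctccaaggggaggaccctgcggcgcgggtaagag
The windows share 78 bases, so that the last GGGCGG of the Col4a2 window is the reverse complement match near the end of the Col4a1 window. The Col4a1 window holds GGGCGG once and CCAAT once, that of Col4a2 GGGCGG 3 times and CCAAT once, and neither holds TATAAA. Their GC contents are 74.0% and 73.7%.

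Col4a1 read 8.20, 8.20 and 8.39 in wild-type under saline and 8.83, 9.09 and 9.07 under paraquat. The groups did not overlap, and the mean rose by 0.73 (SE 0.15, limma adjusted p = 0.011). A second probe set differed by 0.27, and with the mean of both the rise was 0.50 (limma adjusted p = 0.031). The call ended without the first or second wild-type saline array or the second or the third wild-type paraquat array, with an adjusted p of up to 0.07.

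Ccn2 read 7.64, 7.55 and 7.76 under saline and 8.52, 8.63 and 8.51 under paraquat in wild-type. The lowest paraquat array was above the highest saline array, and Ccn2 rose by 0.90 (SE 0.20, limma adjusted p = 0.018). Leaving out the first or second wild-type saline array or any of the 3 wild-type paraquat arrays ended the call, with an adjusted p of up to 0.1. Averaged over the 3 genotypes, Ccn2 rose by 0.53 (SE 0.12, limma adjusted p = 0.0093) and was the only one of the 35 genes called, 2.86% beside 4.89% of all genes (2.01% higher and 2.88% lower). Leaving out knock-out paraquat replicate 2 gave 4 calls, and the share of all genes called in that fit is not given here.

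The partner chain Col4a2 read 7.23, 7.19 and 7.43 under saline and 7.71, 7.62 and 7.80 under paraquat, without overlap, and differed by 0.43 (SE 0.13, limma adjusted p = 0.12). It was also called when knock-out paraquat replicate 2 was left out (limma adjusted p = 0.034). Lamc1, the gamma chain of most laminins of vessels, read 7.24, 7.16 and 7.35 under saline and 7.49, 7.56 and 7.64 under paraquat, also without overlap, and differed by 0.31 (SE 0.13, limma adjusted p = 0.4), while its second probe set differed by -0.05. The other vascular genes gave smaller values: fibronectin (Fn1) differed by 0.19 (SE 0.13) and perlecan (Hspg2) by -0.16 (SE 0.12). Under paraquat, 1 of 11 tested endothelial markers was called higher, the glucose transporter Slc2a1, and 2 lower, Tek and Cldn5; the list's mean was 8.37 to 8.44 under paraquat and 8.55 to 8.60 under saline. The level of the pericyte and smooth muscle list overlapped (8.21 to 8.32 and 8.18 to 8.25). Their part in the Col4a1 and Ccn2 values was not tested.

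In the knock-out, 0 of 35 genes were called under paraquat (2.26% of all genes were, 0.793% higher and 1.47% lower). Of the 35, 6 had an unadjusted limma p under 0.05, beside 1484 of the 8320 genes tested, a similar share. Biglycan read 7.80, 7.84 and 7.74 under saline and 7.46, 7.0 and 7.47 under paraquat, without overlap, and differed by -0.49 (SE 0.15, limma adjusted p = 0.089). Without the third knock-out paraquat array it was called lower (-0.57, limma adjusted p = 0.041). Ccn2 read 7.59, 7.52 and 7.84 under saline and 8.65, 7.83 and 8.19 under paraquat, where the second array, the one that stood apart, overlapped with saline; it differed by 0.58 (SE 0.20, limma adjusted p = 0.14). Sparc, which encodes a collagen-binding matricellular protein, read 12.01, 11.91 and 11.97 and then 11.61, 11.44 and 11.70, a difference of -0.38 (SE 0.14, limma adjusted p = 0.16). Col4a1 was 8.24, 8.24 and 8.26 under saline and 8.69, 8.25 and 8.60 under paraquat, and differed by 0.27 (SE 0.15, limma adjusted p = 0.37). Of 11 tested endothelial markers, 1 was called higher and 3 lower in the knock-out under paraquat. The list's mean was 8.15 to 8.46 under paraquat and 8.54 to 8.64 under saline, so it was lower as in wild-type. The difference of the paraquat effect between knock-out and wild-type called 0 of the 35 genes and 0% of all genes. An unadjusted limma p under 0.05 was found for 2 of the 35, beside 148 of the 8320 genes tested. The smallest were those of Col4a1 (-0.47, SE 0.22), Dcn (-0.39, SE 0.19) and Vcan (-0.40, SE 0.22), each with a limma adjusted p of 0.87. The second probe set of Col4a1 went the other way, with a paraquat effect of 0.38 in the knock-out and 0.27 in wild-type. The other probe sets of Vcan disagreed, at 0.06 and -0.07 in the knock-out and 0.04 and 0.14 in wild-type.

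In the transgenic, 0 of 35 genes and 0% of all genes were called under paraquat. Of the 35, 1 had an unadjusted p under 0.05, beside 118 of the 8320 genes tested. The 3 smallest p-values were those of Ncan (-0.34, SE 0.15), Igfbp2 (0.33, SE 0.16) and Col3a1 (-0.43, SE 0.24), each with a limma adjusted p of 1. Col4a1 read 8.92, 8.94 and 8.28 in the transgenic under saline, where the first and second arrays were as high as wild-type under paraquat and the third was at the wild-type saline level. Under paraquat it read 8.80, 8.51 and 8.50. Ccn2 read 7.58, 7.70 and 7.32 under saline and 8.11, 7.68 and 7.12 under paraquat, where the first paraquat array lay above all saline arrays, the third below them and the second among them. Under paraquat Ccn2 was lower in the transgenic than in wild-type, by 0.92 (SE 0.20, limma adjusted p = 0.0042), which is 53.0% of its level.

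The test of the difference itself did not pass. The paraquat effect of the transgenic minus that of wild-type was -0.85 for Col4a1 (SE 0.22, limma adjusted p = 0.21), -0.55 for Col4a2 (SE 0.18, limma adjusted p = 0.59), -0.80 for Ccn2 (SE 0.28, limma adjusted p = 0.63) and -0.44 for Lamc1 (SE 0.19, limma adjusted p = 0.97). These 4 were the only ones of the 35 with an unadjusted p under 0.05, beside 378 of the 8320 genes tested. All 4 were of the vascular class, and 0 of 35 were called beside 0.180% of all genes. The result depended on the probe set. Under paraquat a second probe set of Col4a1 differed by 0.27 in wild-type and by -0.09 in the transgenic, a smaller gap. That of Lamc1 differed by -0.05 and 0.06, so that its gap went the other way. Without the third transgenic saline array, Col4a1 was called (-1.06, limma adjusted p = 0.017). The transgenic Col4a1 values under saline also stood 0.45 above wild-type without a call (SE 0.15, limma adjusted p = 0.08).

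**Figure D5:**
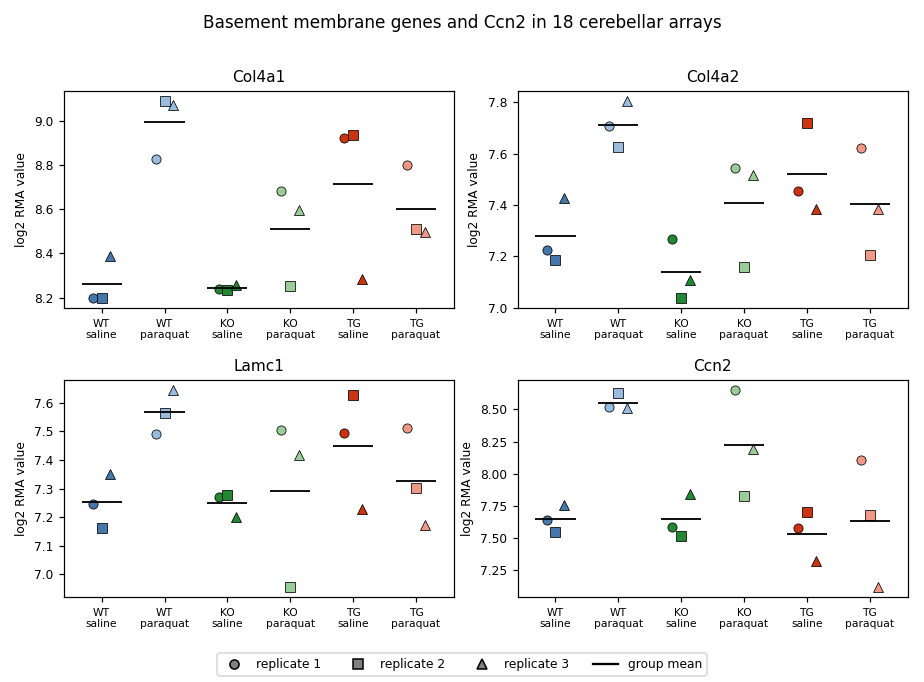
Log2 RMA values (vertical axis) of 3 basement membrane genes and Ccn2 in the 6 groups (horizontal axis); symbols are arrays, shaped by replicate number, and bars are group means. In wild-type (blue) all paraquat arrays of Col4a1 lie at 8.83 to 9.09, above the saline arrays at 8.20 to 8.39, while transgenic saline arrays spread from 8.28 to 8.94.

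The remaining laminins and basement membrane genes were called in none of the 10 comparisons. Lama5 read 8.54 on the second knock-out paraquat array against 7.33 and 7.34 on the others of its group, and ranged from 7.14 to 7.59 on all arrays but that one. Lamb1 ranged from 6.94 to 7.88 and Lamb2 from 6.02 to 6.75, and by these probe sets they differed from wild-type in the transgenic by -0.14 to -0.31. The probe sets of Lamb1 disagreed: another differed by 0.23 under saline and 0.62 under paraquat, and the last by -0.19 and -0.35. Hspg2 ranged from 8.96 to 9.42, Col18a1, the endostatin-bearing collagen of basement membranes, from 8.75 to 9.33, and Fn1 from 8.46 to 9.0. Lama4, between 5.10 and 5.58, was not tested.

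Loss of ApoD alone left the matrix genes without a call. In knock-out against wild-type 0 of 35 genes were called under saline (0.0240% of all genes) and 0 under paraquat (0.0120%). Under saline 0 of the 35 had an unadjusted p under 0.05, beside 129 of the 8320 genes tested. The smallest p-values of the 35 were those of Sparc (-0.21, SE 0.14), Igfbp2 (-0.24, SE 0.16) and Col5a1 (0.19, SE 0.13). Under paraquat 10 of the 35 had an unadjusted p under 0.05, beside 1097 of the 8320 genes tested. These 10 were led by Sparc (-0.50, SE 0.14, limma adjusted p = 0.26), Dcn (-0.43, SE 0.13, limma adjusted p = 0.34) and Col4a1 (-0.49, SE 0.15, limma adjusted p = 0.37). The second probe sets of Sparc and Col4a1 differed by -0.19 and 0.02 in that comparison. The median of the 35 genes was -0.17 there and that of all genes -0.12.

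Among 68 tested matrix enzymes, receptors, partners and growth factors outside the 65 genes, of 108 listed, some were called in the same comparisons. Under paraquat in wild-type 2 were higher and 2 lower (2.94% each, beside 1.53% and 0.469% of all genes): Thbs3, a thrombospondin, rose by 0.69 (SE 0.12), and Pcolce2, an enhancer of procollagen processing, by 1.03 (SE 0.23), while the glycoprotein tenascin-C (Tnc) fell by 0.68 (SE 0.13) and the collagen chaperone Serpinh1 by 0.70 (SE 0.14). In the knock-out 0 were higher and 7 lower (10.3%, beside 1.47%), with Cd44, the hyaluronan receptor, falling by 1.24 (SE 0.17) and Tnc, Serpinh1 and the protease Adamts1 by 0.73 to 0.81. On average over the genotypes 2 were higher and 10 lower (2.94% and 14.7%, beside 2.01% and 2.88%), and in the transgenic, and in knock-out against wild-type under either treatment, 0 were called. In transgenic against wild-type 6 were higher and 4 lower under saline (8.82% and 5.88%, beside 1.98% and 4.38%), led by the collagen lysyl hydroxylase Plod1 (0.78, SE 0.13), the syndecan Sdc1 (0.71, SE 0.13), Pcolce (-1.02, SE 0.20) and Tgfb2 (-0.59, SE 0.14). Under paraquat 10 were higher and 9 lower (14.7% and 13.2%, beside 4.64% and 14.3%), so that the share of lower calls was near that of all genes; they were led by Tnc (0.73, SE 0.13), Thbs3 (-0.70, SE 0.12), the integrin chain Itgb1 (0.66, SE 0.12) and Sdc1 (0.64, SE 0.13). Every value named here had a limma adjusted p under 0.05. The wild-type paraquat arrays are shared by the first and last of these comparisons.

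For the 30 genes that were not tested only values can be given. Col1a1 read 5.89, 5.78 and 7.02 in wild-type under saline and 5.55 to 6.32 on all others, the third array being higher by more than 1. That array was also the highest of its group for Col1a2 and Bgn, and for 22 of the 35 tested genes. On the second knock-out paraquat array Col9a1 read 7.60 and Col2a1 7.40, both collagens of cartilage, against at most 6.29 and 6.08 on the others.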

How the data were processed

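Gene expression was measured in mouse cerebellum on 18 arrays, 3 in each of 6 groups. The deposited values are log2 signals, 1 per probe set and array, made by the authors with RMA, per the submitters' processing notes, which give no version. They run from 3.13 to 14.9. They are not centred per gene. Which arrays were normalised together stays unknown, and scanner files were not used here. The median value was 6.99 for knock-out paraquat replicate 2 and 7.10 to 7.15 for the other arrays. The titles name paraquat; the other arrays were taken as saline from the treatment protocol.

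Probe sets with several gene symbols (691) or none (1555), and 64 controls, were left out, which gave 12393 genes. A gene was kept at or above the 40th percentile of at least 3 arrays, which left 8320. All arrays were fitted with 6 group means in limma 3.58.1 (lmFit, eBayes; R 4.3.3; 12 residual degrees of freedom), in 10 comparisons, two-sided, with Benjamini-Hochberg adjustment over all genes tested. The script was tested on simulated data. The median half-width of the 95% confidence interval was 0.27 between 2 groups, and 3 arrays per group set that limit.

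The members, classes and lists were chosen with earlier results of these data known. Named genes are a core of 24 members, every called member, the 3 smallest p-values where no member was called, and at most 4 called related genes per comparison. Members called only without the filter, or named from the values of untested genes, were chosen after their values were seen. Same-numbered arrays had r over 0.1 for every number only in the transgenic, saline with paraquat (r = 0.16, 0.13 and 0.42). The replicate block changed no call there (0 and 0). Wild-type, saline with paraquat, was similar but missed the cut with its first number (r = 0.086, 0.148 and 0.335). With the block, 2 matrix genes were still called for paraquat in wild-type. Alternatives were the replicate block, quantile normalisation, no filter, the 60th percentile, the mean of probe sets, array weights, the groups compared alone, and leaving out each array.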

Additional observations from a re-analysis of the deposited data

How the results depend on the processing

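The values of single genes under the alternatives were those of called genes and some other named ones, where the gene was still tested. None of them changed direction, and 674 of 734 kept their side of the threshold. Single other probe sets were not among the alternatives. Some went the other way, as for Vcan and Igf2 in transgenic against wild-type under paraquat. Of the class medians, 738 of 747 moved by less than the spread. The counts of called matrix genes moved more, and the cause was not tested. The share of all genes called in each alternative is not given here. The counts below therefore do not show whether matrix genes changed more than other genes. Array weights raised them to 4 for paraquat in wild-type, 11 in knock-out, 5 in transgenic and 13 on average, to 1 in knock-out against wild-type under paraquat, to 17 and 20 in transgenic against wild-type under saline and paraquat, and to 4 for the transgenic interaction. Without the filter, 4 were called for paraquat in wild-type and 4 on average; Col6a3 (0.56, limma adjusted p = 0.0072) and Ccn1 (0.54, limma adjusted p = 0.018) joined Col4a1 and Ccn2 in wild-type. With the groups compared alone, 8 were called in wild-type. The average effect gave 2 with quantile normalisation and 2 with the mean of probe sets. At the 60th percentile, where Ogn and Lum are not tested, 4 and 5 were called in transgenic against wild-type under saline and paraquat. Leaving out 1 array gave 0 to 3 for paraquat in wild-type, 0 to 1 in knock-out, 1 to 4 on average, 4 to 10 and 7 to 14 in transgenic against wild-type under saline and paraquat, and 0 to 1 for the transgenic interaction. With the replicate block, 2 genes were called for paraquat in wild-type, 6 and 8 in transgenic against wild-type, and Ncan lost its call under saline; the block changed no other call of a matrix gene.

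With 3 pools a group, differences under about 0.27 on the log2 scale were below the usual confidence interval, so that an uncalled gene is not shown to be equal. Dim probe sets, such as those of Lum in the transgenic, may understate a fold change.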

Other observations

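Matrix genes below the filter held further differences when all 12393 genes were fitted, named here after their values were seen. Col11a2, a fibrillar collagen chain of cartilage, read 5.65, 5.59 and 5.81 in wild-type under saline and 6.01, 6.29 and 6.29 in the transgenic, and was called higher by 0.52 under saline (SE 0.11, limma adjusted p = 0.014) and by 0.43 under paraquat (SE 0.11, limma adjusted p = 0.012). Ccn1, a matricellular relative of Ccn2, read 5.14, 5.41 and 5.01 under saline and 5.85, 5.69 and 5.65 under paraquat in wild-type. Col6a3, a chain of beaded-filament collagen, read 5.57, 5.68 and 5.77 and then 6.20, 6.12 and 6.39, and was lower by 0.34 in the transgenic than in wild-type under paraquat (limma adjusted p = 0.041). In each of the 3 genes the compared groups did not overlap at these low signals.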
